A study of Mus musculus with 6 samples.

Results

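The genes described here encode the protein subunits of the mitochondrial respiratory chain (complexes I to IV) and of ATP synthase (complex V). They were chosen by symbol: rows of the count table whose gene symbol begins with the family names Nduf (classes a, b, c, s and v), Sdh (a to d), Uqcr, Cox4 to Cox8 or Atp5. The patterns matched 84 of 23107 genes, and none was a pseudogene. Of these, 81 are structural subunits: 35 of complex I, 4 of complex II, 8 of complex III, 19 of complex IV and 15 of complex V. The other 3 rows matched by name and are not structural subunits. Atp5s and Atp5sl are now called Dmac2l and Dmac2, and Cox4nb is Emc8, a subunit of a protein complex of the endoplasmic reticulum. Ndufa4, first described in complex I, was counted with complex IV, where its protein resides. No row carried the symbol Ndufb1, and 4 subunits had rows outside the patterns (Ndufab1, Cyc1, Usmg5 and 2010107E04Rik), which are given with the other pathway genes. The subunits encoded by mitochondrial DNA were not analysed here.

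RNA was sequenced from myeloid cells that carried CD11b and Gr-1 on their surface and were sorted from gliomas of C57BL/6 mice. Tumours carried wild-type IDH1 (wtIDH1) in 3 libraries and mutant IDH1 (mIDH1) in the other 3. The IDH1 enzyme makes alpha-ketoglutarate in the cytosol, and the mutant enzyme of gliomas turns it into 2-hydroxyglutarate. The genotype is that of the tumour, and the labels do not give the age of the mice, the other alleles of the tumours, or whether the libraries of a group came from separate mice. The p-values therefore speak only of the spread among these 6 libraries, part of which may be technical.

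Complexes I and II pass electrons from NADH and succinate to ubiquinone, complex III passes them on to cytochrome c, and complex IV passes them to oxygen. Complexes I, III and IV pump protons across the inner mitochondrial membrane as they do so, and ATP synthase lets the protons flow back to make ATP. Complex II is also an enzyme of the tricarboxylic acid (TCA) cycle. In myeloid cells, the balance between this chain and glycolysis is known to differ with cell type and activation: neutrophils rely mostly on glycolysis, and alternatively activated macrophages on respiration.

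The libraries held between 19728205 and 35093265 counts. A gene with an observed 0 may still have had 3 counts, worth 0.0861 to 0.151 CPM (counts per 1e+06 counts) in these libraries. Levels are given in CPM with the TMM scaling of edgeR, and a mean has its SD over n = 3 libraries. Itgam, which encodes CD11b, was at 1778 to 2056 CPM in wtIDH1 and 1830 to 2222 CPM in mIDH1 libraries, and Ly6g was not analysed here. The neutrophil gene S100a9 was at 23.6 to 43.6 CPM in wtIDH1 and 43.8 to 56.0 CPM in mIDH1 libraries. The myeloid gene Lyz2 was at 4253 to 8105 CPM over the 6 libraries. Of the other myeloid genes listed, Csf1r (1838 ± 115 against 1506 ± 136 CPM) was lower in value without overlap. Cd14 (1039 ± 175 against 593 ± 102 CPM, edgeR adjusted p = 0.0211) passed the test as lower in mIDH1, and Ptprc (1248 ± 40.4 against 1144 ± 228 CPM) overlapped. Of 8 tested neutrophil markers, 3 passed the test as higher in mIDH1 and 1 as lower. The summed neutrophil markers were at 324 to 396 CPM in wtIDH1 and 400 to 425 CPM in mIDH1 libraries. Of 10 macrophage markers 6 passed as higher, and their summed level was 4644 to 5870 CPM in wtIDH1 and 7790 to 15043 CPM in mIDH1 libraries. Of 6 monocyte markers 3 passed as lower, among them Ly6c2 (152 ± 54.1 against 45.0 ± 10.4 CPM), while Chi3l3 (652 ± 317 against 1490 ± 894 CPM) and Vcan (207 ± 88.5 against 365 ± 242 CPM) were higher in value with overlapping groups. Their summed level was 1904 to 3083 CPM in wtIDH1 and 1156 to 3658 CPM in mIDH1 libraries. The summed T and NK cell markers were at 228 to 405 CPM in wtIDH1 and 329 to 625 CPM in mIDH1 libraries. Glioma and neural markers summed to 15.1 to 19.3 CPM in wtIDH1 and 22.1 to 25.3 CPM in mIDH1 libraries. Of 5 tested, Sox2 passed as higher (0, 0.0758 and 0.151 CPM against 0.545, 7.29 and 4.18 CPM, edgeR adjusted p = 0.0368). Nes was higher in value (2.91 ± 0.705 against 8.96 ± 0.598 CPM) and Ptprz1 lower (5.06 ± 2.93 against 1.03 ± 0.697 CPM), both without overlap, Gfap was at 2.86 ± 2.48 against 0.667 ± 0.124 CPM, and Olig2 was under 3 counts in each library. The ribosomal RNA precursor Rn45s took 3.24 to 6.56% of the counts in wtIDH1 and 6.11 to 8.08% in mIDH1 libraries. The sums of the neutrophil, the macrophage and the glioma and neural markers were each apart between the groups, with higher values in mIDH1. Csf1r and Cd14 were apart too, with lower values in mIDH1. Itgam, Lyz2, Ptprc, the monocyte sum, the T and NK cell sum and Rn45s overlapped. The sums of the dendritic cell, the microglia and the endothelial and pericyte markers overlapped as well. The part of these differences between libraries in the results below was not tested.

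Most subunit genes had a higher level in cells from mIDH1 tumours, by a modest amount, and no single gene passed the test. Of the 81 subunits, 76 passed the filter on low counts and were tested with edgeR's quasi-likelihood test. None was called in either direction at an adjusted p of 0.05 over all 12950 genes tested, of which 8.17% were called. Called genes were 2.78% of all tested in the higher direction and 5.39% in the lower. Lower genes were 66.0% of these calls, and 55.1% with libraries scaled by their totals alone. At an unadjusted p under 0.05 there were 14 members, all higher in mIDH1, or 18.4% of members against 10.1% of all genes tested. DESeq2 called 2 members higher, Atp5f1 and Atp5o (5.07% of all genes called higher), and limma voom called 0. The same 2 were called with library totals alone (3.73%) and with upper-quartile scaling (3.52%). Atp5f1 alone was called without a filter (2.95%), with robust dispersion (3.03%) and with the newer quasi-likelihood fit (3.4%). The log2 fold change was positive for 61 of 76 members, or 80.3%, against 53.4% of all genes tested. Its median was 0.37 over members and 0.06 over all genes. Members ranged from -0.998 (Atp5k) to 0.99 (Uqcr10), and their median SE was 0.29. Members were chosen as a pathway, and these counts describe the set and carry no test. RNA of a bulk sample does not tell more cells of a type from more RNA in each cell.

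**Figure D1:**
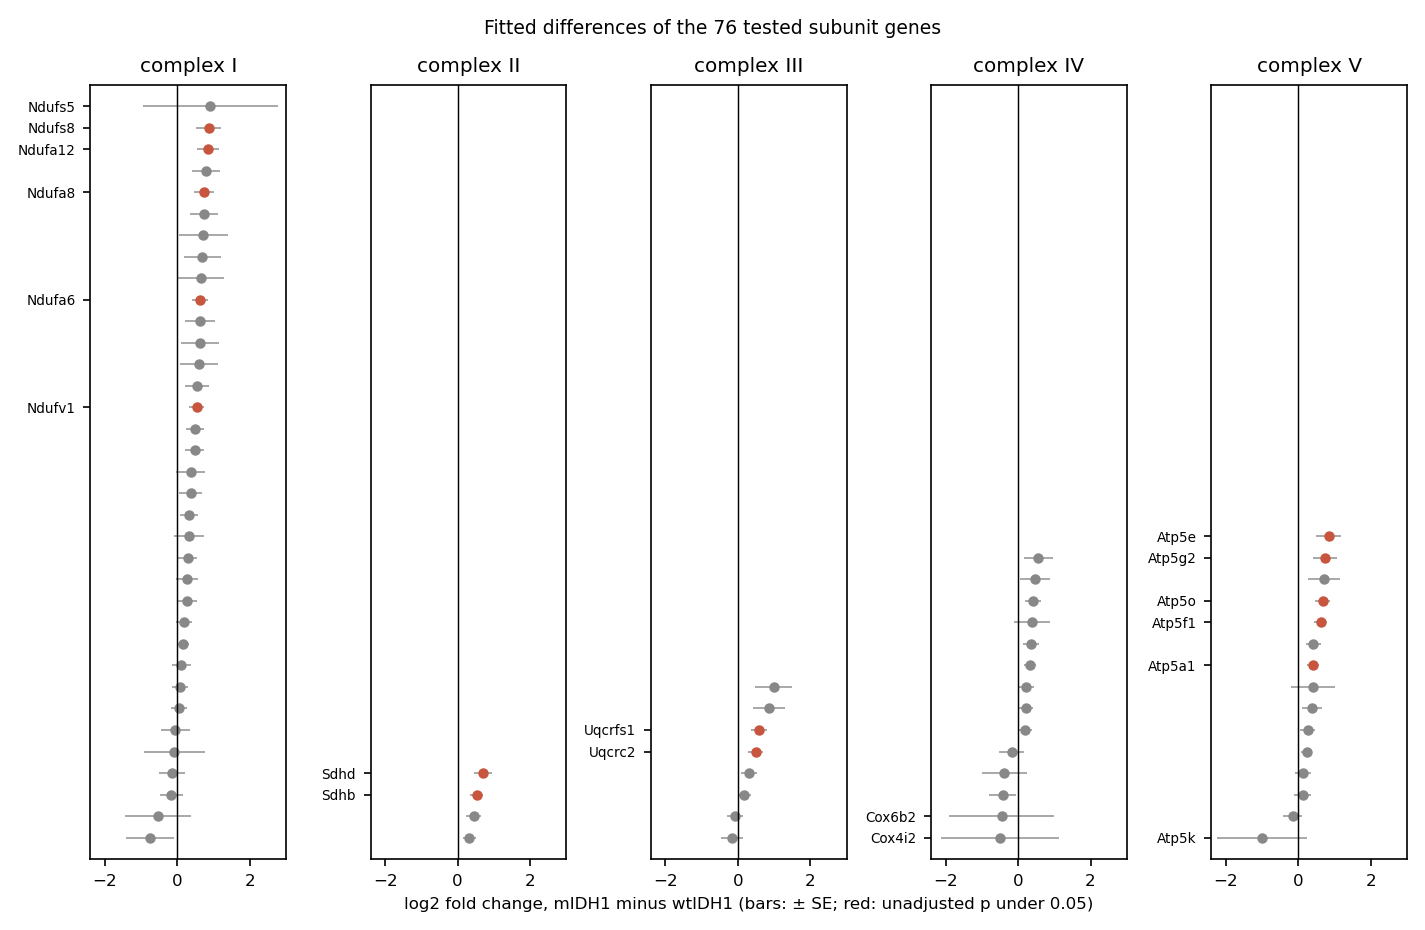
Log2 fold change (mIDH1 minus wtIDH1) of each of the 76 tested subunit genes, by complex, with bars of ± SE and with red points for an unadjusted p under 0.05, and with names for those genes and 4 low genes. The points lie to the right of 0 for 61 genes, all 4 complex II genes among them, and the widest bars belong to low genes such as Ndufs5, Cox4i2, Cox6b2 and Atp5k.

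Groups that did not overlap (all 3 mIDH1 libraries above all 3 wtIDH1 libraries) were found for 21 of 76 members, or 27.6%, against 14.0% of all genes tested. This differed with transcript length: the share was 13.8% of 29 members under 700 nt, against 16.3% of all tested genes of that length, 28% of 25 members from 700 to under 1200 nt, against 12.6%, and 45.5% of 22 longer members, against 14.0%. In the shortest class, the members' share was thus near the background. The reverse held for 1 member, Atp5k, against 14.9% of all genes. Added over the 81 subunits, the level was 3353, 3514 and 3301 CPM in wtIDH1 replicates 1 to 3, and 4021, 4037 and 4593 CPM in mIDH1 replicates 1 to 3. The summed level was thus higher in every mIDH1 library than in any wtIDH1 library, and highest in mIDH1 replicate 3. That library held the highest value of the 6 for 43 of 76 members and the lowest for 1. It also had the highest level of most of the 10 macrophage markers. Apoe, a lipid carrier, was at 6830 CPM there and at 1918 to 2687 CPM in the other 5 libraries. C1qa, a complement component, was at 1599.6 against 408 to 743 CPM. Not all macrophage markers did this: in mIDH1 replicates 1 to 3 Gpnmb was at 1324, 1283 and 876 CPM and Cd68 at 303, 284 and 280 CPM. The summed monocyte markers were lowest in mIDH1 replicate 3, at 1156 CPM against 1904 to 3658 CPM in the other 5 libraries. The summed microglia markers were highest there, at 1261 against 620 to 925 CPM. The part of these differences in the subunit levels was not tested. Without mIDH1 replicate 3 the median log2 fold change over members was 0.25, 55 of 76 were positive, and 5 had an unadjusted p under 0.05. The count at that p was 8 without wtIDH1 replicate 2 and 7 without wtIDH1 replicate 3.

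The complexes differed in how the mIDH1 libraries lined up. For each gene the deviation of a library from the mean of the 6 was taken on the scale log2(CPM + 0.5), and the median over a complex describes that library. For complex II the medians were 0.24, 0.24 and 0.22 in mIDH1 replicates 1 to 3, and -0.26, -0.30 and -0.21 in the wtIDH1 libraries. In this median of 4 genes the 3 mIDH1 libraries thus lay together, well above the others. Single genes ordered them differently: over mIDH1 replicates 1 to 3 Sdhd rose (38.2, 48.8 and 64.8 CPM) and Sdhc fell (66.4, 63.0 and 56.5 CPM). For complex I the mIDH1 medians were 0.05, -0.00 and 0.60, and the wtIDH1 medians lay between -0.18 and -0.08, so that mIDH1 replicate 3 stood far above the rest. Complex IV showed the same library on top, at 0.44, while mIDH1 replicate 1, at 0.07, lay within the wtIDH1 range of -0.09 to 0.08 and mIDH1 replicate 2, at -0.13, below it. For complex III the mIDH1 medians were 0.14 to 0.26 and the wtIDH1 medians -0.33 to -0.12, and for complex V they were -0.01 to 0.33 and -0.21 to -0.08.

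**Figure D2:**
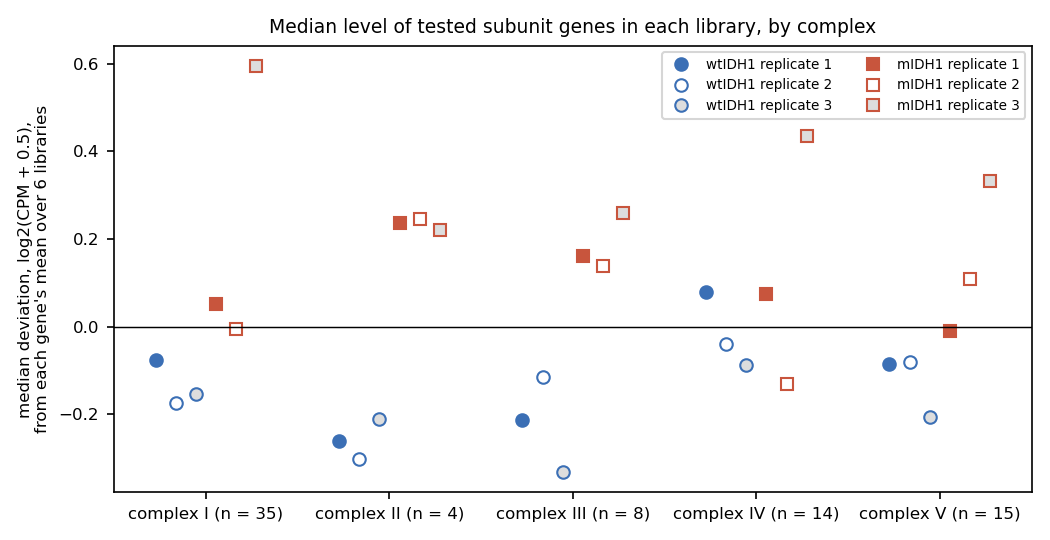
Median deviation of each library from the gene's mean over 6 libraries, on the scale log2(CPM + 0.5), over the tested genes of each complex. The mIDH1 libraries (squares) lie together at 0.22 to 0.24 for complex II, whereas mIDH1 replicate 3 alone stands high for complex I (0.60) and complex IV (0.44).

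Complex I, NADH dehydrogenase, is built from a hydrophilic arm, with an N module that oxidises NADH and a Q module that reduces ubiquinone, and a membrane arm that pumps protons. All 35 genes were tested. The log2 fold change was positive for 29 of them, with a median of 0.38, which was 0.18 without mIDH1 replicate 3. The groups did not overlap for 6 of the 35, all higher in mIDH1, and 5, all higher, had an unadjusted p under 0.05. Over all genes tested these shares were 14.0% and 10.1%, so the complex I counts were little above the background. By module, 9 of 10 N-module genes (median 0.43), 5 of 5 Q-module genes (median 0.55) and 15 of 20 genes of the membrane arm and its junction (median 0.35) were positive.

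In the N module, Ndufa6, an accessory subunit (chromosome 15, 82350139 to 82354291), was at 27.3, 29.6 and 29.5 CPM in wtIDH1 and at 44.9, 38.4 and 50.6 CPM in mIDH1 replicates 1 to 3. The wtIDH1 libraries lay close together and all 3 mIDH1 libraries were above them (log2 fold change 0.63 ± 0.23 SE, edgeR adjusted p = 0.114). Ndufv1, the flavoprotein that takes electrons from NADH, was at 40.8, 38.2 and 31.3 CPM against 47.0, 55.1 and 57.2 CPM (0.53 ± 0.22, edgeR adjusted p = 0.165), again without overlap. Ndufa12, an accessory subunit, was at 17.5, 10.7 and 13.6 CPM against 20.5, 25.5 and 29.2 CPM (0.85 ± 0.31, edgeR adjusted p = 0.126). Ndufs1, the largest iron-sulfur subunit, was at 41.3, 26.9 and 47.2 CPM against 50.9, 62.3 and 48.0 CPM, where the groups were apart by less than the spread within wtIDH1 (edgeR adjusted p = 0.280).

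In the Q module, Ndufs8, an iron-sulfur subunit, was at 12.1, 15 and 10.8 CPM in wtIDH1 and 16.5, 20.9 and 31.9 CPM in mIDH1 libraries (0.87 ± 0.34, edgeR adjusted p = 0.151). In the membrane arm, Ndufa8 was at 22.4, 23.0 and 16.0 CPM against 28.1, 33.3 and 41.5 CPM (0.75 ± 0.28, edgeR adjusted p = 0.123), with no overlap. Ndufc1 had the most negative value, at 9.14, 4.09 and 4.58 CPM against 2.90, 2.42 and 5.27 CPM (-0.75 ± 0.66), and its groups overlapped. Ndufs5 was read from few libraries: it was at 9.47 CPM in wtIDH1 replicate 1, 16.4 CPM in mIDH1 replicate 3 and 1.46 CPM in mIDH1 replicate 2, and at 0 in the other 3.

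Complex II, succinate dehydrogenase, holds 4 subunits, all encoded in the nucleus. The groups did not overlap for any of the 4 genes, and each was higher in mIDH1, against 14.0% of all genes tested. The median log2 fold change was 0.49, and 0.50 without mIDH1 replicate 3. Sdhb, the iron-sulfur subunit (chromosome 4, 140961271 to 140979198), was at 51.4, 54.1 and 48.8 CPM in wtIDH1 and at 73.4, 72.8 and 76.8 CPM in mIDH1 replicates 1 to 3. The gap between the groups exceeded the range within either (0.53 ± 0.18, edgeR adjusted p = 0.0946). Sdhd, a membrane anchor, was at 32.7, 27.6 and 32.9 CPM against 38.2, 48.8 and 64.8 CPM (0.70 ± 0.25, edgeR adjusted p = 0.105). The other anchor, Sdhc, was at 35.5, 54.8 and 46.7 CPM against 66.4, 63.0 and 56.5 CPM (0.44 ± 0.22, edgeR adjusted p = 0.260). Sdha, the flavoprotein that oxidises succinate, was at 80.7, 62.4 and 81.2 CPM against 97.5, 91.3 and 91.1 CPM (0.32 ± 0.18, edgeR adjusted p = 0.332). For Sdhc the highest wtIDH1 library and the lowest mIDH1 library nearly met, and for Sdha and Sdhb the mIDH1 libraries varied little among themselves.

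**Figure D3:**
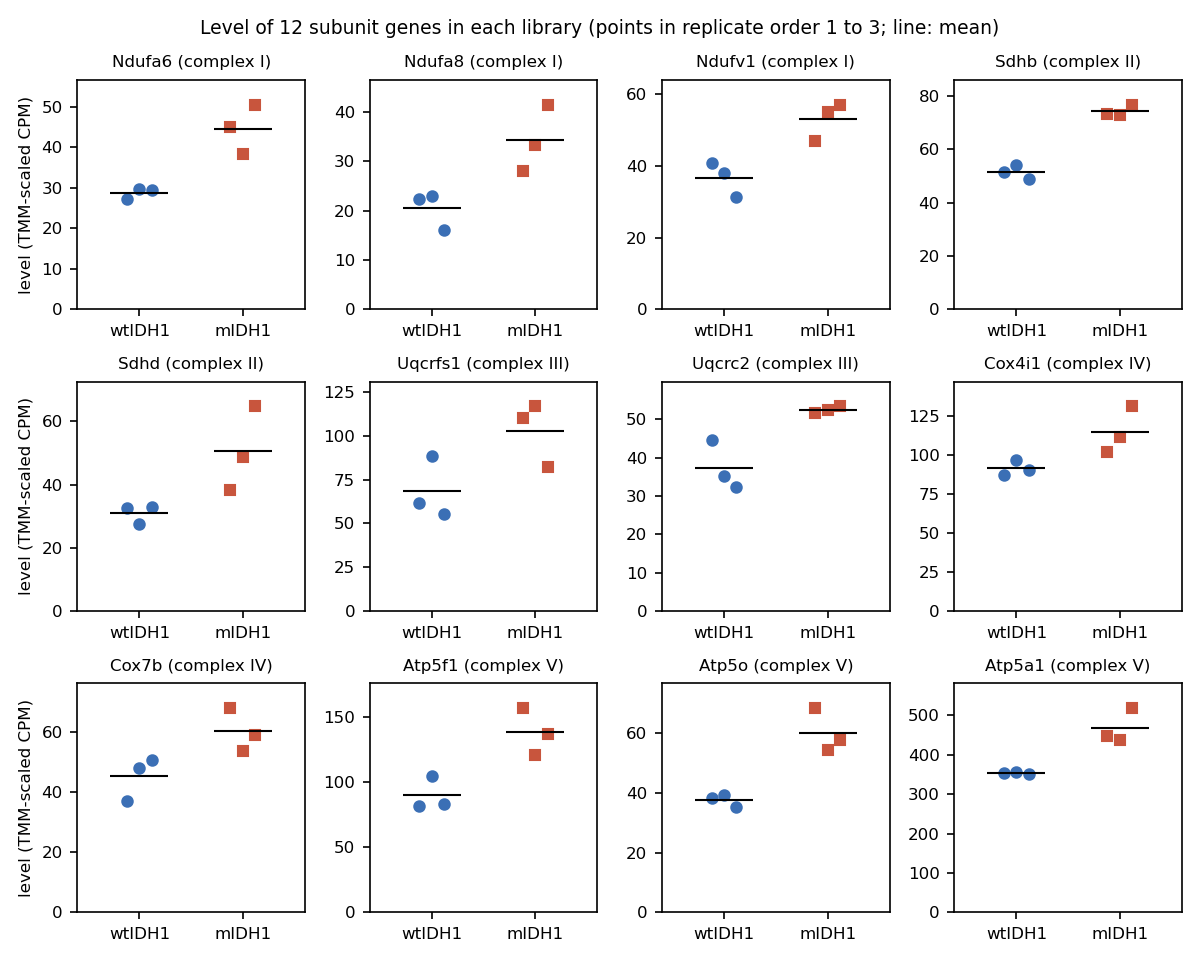
Level in TMM-scaled CPM of 12 subunit genes in each library, with circles for wtIDH1, squares for mIDH1, and a line at the mean of 3. The mIDH1 libraries lie above all wtIDH1 libraries in each panel other than Uqcrfs1, and Sdhb (48.8 to 54.1 against 72.8 to 76.8 CPM) shows little spread within either group. The panels are not typical of the set: such a separation was found for 21 of the 76 tested members, or 27.6%, against 14.0% of all genes tested.

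Complex III, the cytochrome bc1 complex, had 6 of 8 genes with a positive value and a median of 0.40. Uqcrfs1, the Rieske iron-sulfur protein, was at 61.7, 88.2 and 55.6 CPM in wtIDH1 and 110, 117 and 82.1 CPM in mIDH1 libraries (0.59 ± 0.22, edgeR adjusted p = 0.127). Its groups overlapped through wtIDH1 replicate 2 and mIDH1 replicate 3, and without the latter the log2 fold change was 0.73, with an edgeR adjusted p of 0.0529. Uqcrc2, a core protein, was at 44.6, 35.1 and 32.2 CPM against 51.6, 52.3 and 53.5 CPM (0.49 ± 0.22, edgeR adjusted p = 0.198), with no overlap. The other core protein gene, Uqcrc1, had the highest CPM of the complex and a smaller difference, at 114, 135 and 109 CPM against 142, 142 and 122 CPM (0.18 ± 0.17). Among the small accessory subunits, Uqcr10 was at 5.26, 5.99 and 3.83 CPM against 6.00, 11 and 13 CPM (0.99 ± 0.51). Its lowest mIDH1 value barely exceeded its highest wtIDH1 value. Uqcrh, the hinge protein, was at 37.6, 23.6 and 22.4 CPM against 24.6, 19.3 and 31.4 CPM (-0.15 ± 0.30), and its sign turned without wtIDH1 replicate 1 (0.12).

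Complex IV, cytochrome c oxidase, had the smallest median of the 5 complexes, 0.23, and 0.13 without mIDH1 replicate 3. Of 14 tested genes, 9 were positive, 0 had an unadjusted p under 0.05, and the groups did not overlap for 2, Cox4i1 and Cox7b. The count of genes apart was near the share over all genes tested, 14.0%. Cox4i1, the regulatory subunit that binds ATP, was at 87.4, 97.1 and 90.7 CPM in wtIDH1 and 102, 111 and 132 CPM in mIDH1 libraries (0.33 ± 0.17, edgeR adjusted p = 0.294). Cox7b was at 37.1, 48.2 and 50.6 CPM against 68.2, 53.9 and 59.2 CPM (0.42 ± 0.21, edgeR adjusted p = 0.277). For both genes the gap between the groups was smaller than the range within either group. Cox6c was at 65.4, 85.0 and 68.9 CPM against 105, 67.3 and 110 CPM (0.36 ± 0.22), and Cox5a at 16.7, 9.40 and 15.1 CPM against 10.6, 21.8 and 28 CPM (0.55 ± 0.40). In each, 1 mIDH1 library fell within the range of the wtIDH1 libraries and the other 2 lay above it.

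Several subunits of complex IV exist as isoforms, of which some are known from heart, skeletal muscle, lung or testis. The widely expressed isoform had the higher mean level in these cells, and some of the restricted isoforms were read at low levels. Against the levels of Cox4i1 above, Cox4i2, the isoform of lung and of low oxygen, was at 1.99, 1.10 and 0.252 CPM in wtIDH1 and 0.258, 0 and 2.14 CPM in mIDH1 libraries. Cox6a1 was at 9.98, 4.97 and 9.52 CPM against 12.3, 5.43 and 14.3 CPM, while the muscle isoform Cox6a2 had 39 counts in wtIDH1 replicate 1 and at most 1 in any other library. The muscle isoform Cox8b likewise had 31 counts in that library and at most 1 elsewhere, and Cox8a was at 54.7, 59.3 and 59.9 CPM against 68.8, 56.0 and 77.9 CPM. The muscle isoform Cox7a1 had 40 counts in mIDH1 replicate 3 and 7 or fewer elsewhere. Cox7a2 was at 13.3, 5.72 and 11.7 CPM against 11.7, 13.7 and 17.2 CPM, and Cox7a2l, which acts in supercomplexes, at 103, 74.4 and 87.0 CPM against 77.6, 97.8 and 135 CPM. Cox6b1 was at 19.8, 19.3 and 23.98 CPM against 12.1, 15.8 and 28.2 CPM, and the testis isoform Cox6b2 at 1.71, 2.92 and 0.554 CPM against 2.58, 1.21 and 0 CPM. The groups overlapped for each of these genes other than Cox4i1. Cox7b2 and Cox8c had 0 counts in all 6 libraries. These 5 genes, Cox6a2, Cox7a1, Cox7b2, Cox8b and Cox8c, were the subunits that the filter removed, and no fold is given for them.

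Complex V, ATP synthase, joins an F1 head, where ATP is made, to a ring of c subunits in the membrane through a central and a peripheral stalk. Its 15 genes had a median of 0.40, and 13 were positive. The groups did not overlap for 5 genes in the higher direction and 1 in the lower, and 5, all higher, had an unadjusted p under 0.05. The shares of all genes tested were 14.0%, 14.9% and 10.1%. The smallest p-values of all subunits belonged to genes of the peripheral stalk, which holds the head still while the ring turns. Atp5f1, the b subunit, now named Atp5pb (chromosome 3, 105942698 to 105959263), was at 81.3, 105 and 83.4 CPM in wtIDH1 and 157, 121 and 137 CPM in mIDH1 libraries. All mIDH1 libraries were above all wtIDH1 libraries (0.62 ± 0.18, edgeR adjusted p = 0.0539). Atp5o, which links the stalk to the head, was at 38.3, 39.5 and 35.5 CPM against 68.7, 54.6 and 57.6 CPM (0.68 ± 0.20, edgeR adjusted p = 0.0617). The gap between its groups exceeded the range of either group. The other stalk genes did not show this: Atp5h was at 96.8 ± 30.2 against 105 ± 15.5 CPM, and Atp5j at 36.1 ± 2.45 against 32.5 ± 8.99 CPM. DESeq2 gave adjusted p-values of 0.0287 for Atp5f1 and 0.0351 for Atp5o.

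In the F1 head, Atp5a1, the alpha subunit, was at 353, 357 and 352 CPM in wtIDH1 and 449, 437 and 520 CPM in mIDH1 libraries (0.40 ± 0.16, edgeR adjusted p = 0.140), where the wtIDH1 libraries hardly differed. The catalytic beta subunit gene, Atp5b, had the highest CPM of all subunits, at 533, 601 and 567 CPM against 673, 697 and 628 CPM (0.23 ± 0.15), also without overlap. Atp5c1, the gamma subunit that turns within the head, was at 95.3, 95.3 and 70.9 CPM against 83.6, 97.2 and 132 CPM (0.26 ± 0.21), and its groups overlapped. Atp5e, the epsilon subunit, was at 21.1, 11.1 and 13.5 CPM against 29.7, 17.3 and 34.8 CPM (0.84 ± 0.35, edgeR adjusted p = 0.178). In the membrane part, Atp5k was lowest, at 1.29, 2.12 and 1.31 CPM against 0.143, 1.09 and 1.14 CPM (-0.998 ± 1.25), and the SE exceeds the difference.

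The c ring is encoded by 3 genes, Atp5g1, Atp5g2 and Atp5g3, whose import signals differ but whose mature protein is the same. The last 75 codons of the 3 genes encode 1 peptide, so they cannot be told apart at the protein level and only by their transcripts. Over the last 228 coding bases (with the stop codon), Atp5g1 and Atp5g2 were 85.1% identical, Atp5g1 and Atp5g3 79.8%, and Atp5g2 and Atp5g3 78.5%. The longest stretch without a difference in these pairs was 21, 11 and 8 bases. Bases 61 to 150 of this stretch are shown from the GENCODE M21 transcripts (GRCm38.p6), to let the 3 transcripts be compared, with capitals at the 23 positions where they differ.
Atp5g1: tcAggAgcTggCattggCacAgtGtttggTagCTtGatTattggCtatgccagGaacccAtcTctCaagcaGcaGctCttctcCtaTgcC
Atp5g2: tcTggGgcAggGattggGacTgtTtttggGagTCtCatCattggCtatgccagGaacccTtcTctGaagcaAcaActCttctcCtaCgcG
Atp5g3: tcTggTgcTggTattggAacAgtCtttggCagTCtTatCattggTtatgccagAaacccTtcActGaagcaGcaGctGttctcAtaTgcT

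All 3 c-ring genes had a positive difference with overlapping groups. Atp5g2 was at 25.4, 15.6 and 19.0 CPM in wtIDH1 and 18.8, 42.9 and 38.4 CPM in mIDH1 libraries (0.74 ± 0.34, edgeR adjusted p = 0.217). Atp5g1 was at 8.41, 7.05 and 11.3 CPM against 7.72, 15.2 and 20.7 CPM (0.70 ± 0.44), and Atp5g3 at 30.6, 18.3 and 23.7 CPM against 26.9, 35.2 and 31.4 CPM (0.37 ± 0.28). For each of them mIDH1 replicate 1 lay within the range of the wtIDH1 libraries, and mIDH1 replicates 2 and 3 lay above it.

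Levels of different genes were compared per length of transcript, as CPM per kb of the principal coding transcript. In wtIDH1, Atp5b was highest at 296 CPM per kb, followed by Atp5h (155), Cox6c (145) and Atp5a1 (143). In mIDH1 libraries the 4 highest were Atp5b (348), Atp5a1 (190), Cox6c (187) and Atp5h (168). The median over a complex was 19.9 CPM per kb for complex I, 25.5 for complex II, 37.5 for complex III, 39.7 for complex IV and 45.0 for complex V in wtIDH1. In mIDH1 libraries these medians were 24.3, 36.6, 38.3, 35 and 72 CPM per kb. Complex I thus had the lowest and complex V the highest median in both groups, and the genes within complexes I, IV and V spread over more than 10-fold. The lowest were Ndufb2 (1.22 and 1.16 CPM per kb) and Cox4i2 (1.52 and 1.09). The reference transcripts of Ndufb2 and Atp5g1 are 4371 and 4715 nt long, far above the members' median of 823.5 nt, so their levels per kb depend on that choice.

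**Figure D4:**
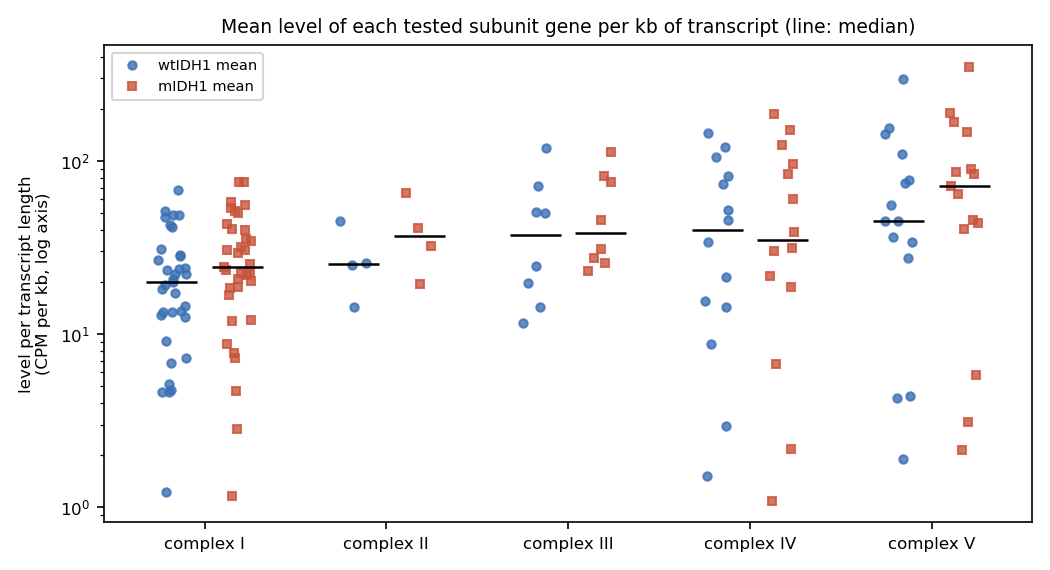
Mean level of each tested subunit gene in CPM per kb of transcript, on a log axis, with circles for wtIDH1, squares for mIDH1 and lines at the median of a complex. Complex I has the lowest median (19.9 and 24.3) and complex V the highest (45.0 and 72.0).

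Subunit transcripts are short, and the precision of their values follows their level. The median transcript length was 823.5 nt for members and 2983.5 nt for all tested genes. Among 29 members with transcripts under 700 nt the median coefficient of variation between replicates (CV) was 0.298, among 25 members from 700 to under 1200 nt it was 0.215, and among 22 longer members 0.180. The same classes had median levels of 13.5, 29.1 and 48.0 CPM, so that length and level moved together. Across the 76 members, Spearman's rho of the CV was -0.77 with the mean level and -0.33 with length, a description across genes that share the same 6 libraries. The fold changes did not follow these: rho of the log2 fold change was -0.08 with level and -0.03 with length, and the medians of the 3 length classes were 0.36, 0.40 and 0.35. Over all genes tested the class medians were 0.23, 0.17 and 0.04, with the highest value in the shortest class. With a correction for transcript length and GC content, 59 of 76 members were positive and their median was 0.30. Many short subunit genes have near-identical pseudogene copies in the mouse genome, and the sources used here do not say how reads matching several places were counted, so that levels of the shortest genes are uncertain.

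**Figure D5:**
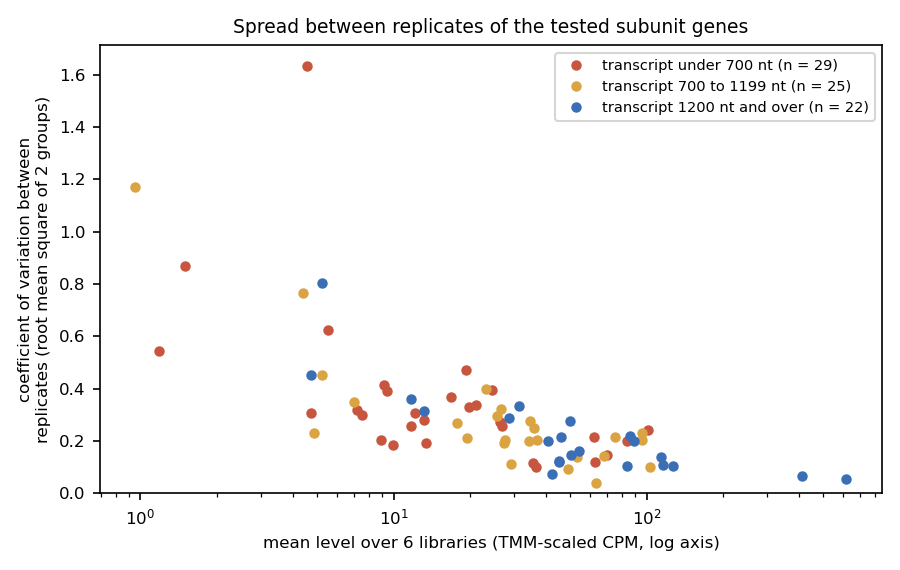
Coefficient of variation between replicates (root mean square of the 2 groups) of each tested subunit gene against its mean level in TMM-scaled CPM on a log axis, with colours for transcript length. The CV falls with level (rho -0.77), and Ndufs5, read in only some libraries, is the highest point.

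Other genes of the pathway were taken from lists written from textbook knowledge. Of 108 genes, 91 had a row and 88 were tested, and 58 of these had a positive value, with a median of 0.22. The test called 1 of the 88 higher and 1 lower, against the 2.78% and 5.39% of all genes above. Atpaf1, which helps to assemble the F1 head (chromosome 4, 115784828 to 115811923), rose from 4.94, 3.41 and 7.10 CPM in wtIDH1 to 22.1, 16.0 and 12.2 CPM in mIDH1 libraries (1.71 ± 0.45, edgeR adjusted p = 0.0341). Without mIDH1 replicate 1 its log2 fold change was 1.45 with an adjusted p of 0.116, and only without mIDH1 replicate 3 among single libraries did the call hold. Pprc1, a coactivator of the PGC-1 family that drives respiratory genes, fell from 86.4, 97.9 and 97.5 to 69.9, 37.2 and 54.3 CPM (-0.80 ± 0.23, edgeR adjusted p = 0.0484). Its call ended with upper-quartile scaling (adjusted p = 0.0580), with library totals alone (0.0611), with the correction for length and GC content (-0.60, adjusted p = 0.140), and without any single library other than mIDH1 replicate 1.

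Among assembly factors, 7 of 10 tested for complex I (median 0.31) and 10 of 19 for complexes II to IV (median 0.00) were positive. The groups were apart for 3 of the 10 and 3 of the 19, all higher in mIDH1, against 14.0% of all genes tested. The assembly factors of complexes I to IV named below were picked by their small p. Sdhaf1, which inserts iron-sulfur clusters into complex II, was at 15.7, 16.3 and 4.28 CPM in wtIDH1 and 34.5, 28.6 and 24.9 CPM in mIDH1 libraries (1.27 ± 0.43, edgeR adjusted p = 0.0930). Tmem126b, an assembly factor of complex I, was at 0.369, 0.152 and 0.252 CPM against 3.24, 5.03 and 1.85 CPM (3.69 ± 1.16, edgeR adjusted p = 0.0718), with few counts in wtIDH1. Ndufaf4 was at 6.28, 7.96 and 7.86 CPM against 8.06, 20.3 and 23.0 CPM, and Sco2, a copper chaperone of complex IV, at 9.37, 7.54 and 12 CPM against 17.2, 20.04 and 15.9 CPM, with adjusted p-values of 0.121 and 0.162. The groups of these 4 genes were apart, as were those of Tmem186 (6.93, 9.32 and 4.63 CPM against 17.5, 9.49 and 11.4 CPM) and Cox16 (2.03, 4.89 and 3.17 CPM against 7.66, 9.46 and 5.61 CPM), assembly factors of complexes I and IV. The groups overlapped for Ndufaf2 of complex I (2.91, 0.455 and 1.91 CPM against 0.201, 0.0310 and 0.998 CPM) and for Lrpprc, which stabilises mitochondrial messenger RNAs (52.3, 40.8 and 37.7 CPM against 62.9, 47.6 and 56.5 CPM). For ATP synthase, the assembly factors Atpaf2 (23.9, 9.06 and 13.6 CPM against 19.4, 39.2 and 24.2 CPM) and Tmem70 (2.54, 7.09 and 9.87 CPM against 16.8, 5.83 and 7.70 CPM) overlapped too. Atpif1, which inhibits ATP synthase when it runs backwards, was at 40.7, 48.1 and 42.2 CPM against 33.1, 23.1 and 45.9 CPM (-0.36 ± 0.27). The subunits outside the symbol patterns were mixed: 2010107E04Rik of ATP synthase was at 10.4, 10.3 and 15.1 CPM against 20.7, 23.4 and 23.0 CPM (0.90 ± 0.32, edgeR adjusted p = 0.106), without overlap. Usmg5, of the same complex, was at 9.05, 16.2 and 17.0 CPM against 8.64, 3.78 and 15 CPM (-0.63 ± 0.50). Cyc1, the cytochrome c1 of complex III, was at 47.9, 42.6 and 44.4 CPM against 31.3, 49.0 and 37.0 CPM (-0.20 ± 0.23), and Ndufab1, an acyl carrier of complex I, at 7.11, 5.38 and 4.63 CPM against 7.57, 3.78 and 10.7 CPM (0.36 ± 0.56). The groups of these 3 overlapped.

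Of the 17 genes of pyruvate dehydrogenase and the TCA cycle, 15 were positive (median 0.27). Suclg2, a succinyl-CoA synthetase subunit, acts just before complex II and was at 7.71, 9.59 and 13.6 CPM against 19.7, 20.3 and 25.6 CPM (1.09 ± 0.34, edgeR adjusted p = 0.0737). Dlst, of the oxoglutarate dehydrogenase complex, was lower in value, at 140, 129 and 148 CPM against 124, 98.4 and 99.7 CPM (-0.37 ± 0.17). Pdha1, of pyruvate dehydrogenase, was at 94.8, 94.2 and 65.9 CPM against 96.7, 120 and 112 CPM, and Fh1, the fumarase that follows complex II, at 16.5, 14.6 and 25.1 CPM against 20.9, 28 and 34.1 CPM. The groups were apart for Suclg2, Dlst and Pdha1 and overlapped for Fh1. Over the 17 genes, 6 were apart with higher and 1 with lower values in mIDH1, against 14.0% and 14.9% of all genes tested. Of 19 genes of cytochrome c, coenzyme Q synthesis and other quinone reductases, 14 were positive (median 0.37). Of coenzyme Q synthesis, Coq2 was at 31.8, 42.4 and 31.9 CPM against 23.6, 22.3 and 23.4 CPM (-0.61 ± 0.25), and Pdss2 at 1.75, 0.986 and 3.83 CPM against 4.99, 9.83 and 4.23 CPM (1.54 ± 0.75). Coq10b, which binds coenzyme Q, was at 42.7, 23.1 and 33.3 CPM against 19.5, 15.7 and 21.5 CPM (-0.81 ± 0.30). These 3 genes were apart, the first and the last with lower values in mIDH1. Over the whole list of 19, 4 genes were apart with higher and 2 with lower values in mIDH1, against 14.0% and 14.9% of all genes tested. Sqrdl, the sulfide quinone reductase, was at 26.0, 27.7 and 34.5 CPM against 38.0, 34.4 and 57.4 CPM (0.56 ± 0.26), and its groups overlapped. Regulators of mitochondrial biogenesis did not lean one way, with 7 of 15 positive (median -0.02). Gabpa, an activator of many respiratory genes, was at 46.1, 46.2 and 57.4 CPM against 68.5, 67.6 and 71.0 CPM (0.47 ± 0.19, edgeR adjusted p = 0.167). Nrf1, another such activator, was at 66.4, 57.1 and 72.5 CPM against 56.3, 45.9 and 58.0 CPM (-0.29 ± 0.20). Polg, the polymerase of mitochondrial DNA, was at 67.1, 103 and 92.4 CPM against 54.8, 57.9 and 59.5 CPM (-0.61 ± 0.20, edgeR adjusted p = 0.0856). Gabpa was thus higher and Polg lower in every mIDH1 library than in any wtIDH1 library, and Nrf1 overlapped. Over the 15 tested regulators, 2 were apart with higher and 2 with lower values in mIDH1.

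Promoters were read to see what sequence features the subunit genes share. RefSeq promoter windows (GRCm38.p6, 250 bases before to 50 after the start) were found for 67 of the 81 subunits and not for 14. The letters searched, on both strands, were GCGCA, any base and GCGC for NRF1, CCGGAAG for GABPA, YY1 as AAGATGGC, the nuclear receptors ERR as AAGGTCA and SP1 as GGGCGG, and none of these lies within another. The NRF1 letters were in the windows of 17 of 67 subunits, or 25.4%, against 11% of tested genes and 5.19% of all genes with a window. GABPA letters were in 23.9% of subunits and 19.2% of tested genes, while the longer form CCGGAAGT was in 7.46% against 8.73%. YY1 letters were in 14.9% against 5.13%. ERR letters were in 11.9% against 3.98%, and the SP1 letters were rarer than among tested genes, in 40.3% against 66.8%. Any of the first 4 was held by 38 subunits. A match describes letters in a window and is not a binding site, and these data hold no measure of binding.

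The stretches below show 80 bases upstream of the start for the 6 tested subunits with the smallest p that hold any of the first 4 motifs there, to make these shared letters visible. Capitals mark the motif on either strand. Sdhd holds NRF1 and GABPA letters, Ndufa8 and Atp5g2 NRF1, Atp5e and Uqcr11 GABPA, and Atp5l ERR. Among the genes with the smallest p, the letters in Atp5f1 (YY1), Atp5o and Ndufa6 (NRF1) and Sdhb and Ndufs8 (GABPA) lay across or after the start and are not shown. The stretches are on the minus strand at chr9:50603851-50603930 (Sdhd), chr2:36049339-36049418 (Ndufa8), chr2:174464159-174464238 (Atp5e), chr15:102671048-102671127 (Atp5g2), chr9:44920743-44920822 (Atp5l) and chr10:80406843-80406922 (Uqcr11).
Sdhd: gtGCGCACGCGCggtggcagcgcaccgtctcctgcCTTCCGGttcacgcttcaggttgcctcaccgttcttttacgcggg
Ndufa8: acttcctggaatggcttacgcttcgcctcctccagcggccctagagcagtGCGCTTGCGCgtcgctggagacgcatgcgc
Atp5e: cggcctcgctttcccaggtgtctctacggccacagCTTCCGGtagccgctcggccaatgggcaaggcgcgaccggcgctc
Atp5g2: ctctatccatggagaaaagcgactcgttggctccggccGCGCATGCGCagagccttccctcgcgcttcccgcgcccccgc
Atp5l: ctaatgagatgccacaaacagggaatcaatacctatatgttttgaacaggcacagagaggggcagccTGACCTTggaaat
Uqcr11: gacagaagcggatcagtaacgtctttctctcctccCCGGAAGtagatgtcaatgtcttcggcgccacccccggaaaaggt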

How the data were processed

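RNA of sorted glioma myeloid cells was measured in 6 libraries, 3 wtIDH1 and 3 mIDH1, and groups were taken from the sample titles and genotypes. The authors deposited estimated counts for each gene and library, with no scaling for depth. TopHat2 2.0.13 with Bowtie2 2.2.1, Cuffdiff 2.1.1 with Cufflinks, HTSeq and FastQC were used with build mm10, per the submitters' processing notes, and per the labels' protocols polyadenylated RNA was prepared with a TruSeq kit that does not mark strand. The sources used here give neither the order and settings of the tools nor the annotation, nor how reads matching several genes were handled. In each library 1.31 to 1.61% of values were fractional (tolerance 1e-09), and all values were rounded. A chi-square of 48.5 to 139 per degree of freedom separated replicates of the same group, so none was merged.

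Genes were filtered with filterByExpr (minimum count 10, minimum total 15), which left 12950 of 23107. Groups were compared with edgeR 4.0.16 (R 4.3.3; TMM, glmQLFit and glmQLFTest, group only, 4 residual degrees of freedom). Two-sided p-values were adjusted by Benjamini-Hochberg across the 12950 genes at a threshold of 0.05, and log2 fold changes are mIDH1 minus wtIDH1. DESeq2 1.42.0, limma 3.58.1 (voom), other scalings, filters and dispersions, a replicate block, a length and GC correction (loess, span 0.3) and leaving out each library were alternatives. The test was tried on simulated data with known changes. Floors cover counting error only.

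Members and lists were chosen with earlier results of these data known. Values per library are given for the 3 tested members of each complex with the smallest p, the member with the highest level, the member with the most negative fold change, 14 core subunits and the isoform families, and for up to 4 genes with the smallest p in each pathway list. A member that this rule names is not reported here. Ndufs8, Atp5e, Atp5h, Atp5j, Uqcr11, Atp5l, Ndufs5 and the single marker genes were named after their values were seen. Transcript lengths are from GENCODE M21 (GRCm38.p6, the mm10 build), and gene coordinates (counted from 1) and promoters are from RefSeq.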

Additional observations from a re-analysis of the deposited data

How the results depend on the processing

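The count of subunits called higher, 0 by the test reported, was 2 with upper-quartile factors, with library totals alone and with DESeq2, and 1 (Atp5f1) without a filter, with robust dispersion and with the newer quasi-likelihood fit, which was added after seeing the data. It was 0 to 0 on leaving out each library in turn, and no alternative called a subunit lower. The median of all genes tested moved from 0.06 to 0.12 with upper-quartile factors and 0.13 with library totals alone, and that of subunits to 0.44 and 0.45. The subunit median was 0.25 to 0.44 on leaving out single libraries. For complex II the median was 0.55 and 0.56 with those 2 scalings and 0.45 to 0.57 without single libraries. Pathway genes called higher were 2 without a filter, 4 with DESeq2, 3 with the newer fit and 0 to 1 without single libraries. Pathway genes called lower were 0 with upper-quartile factors, with library totals alone and with the length and GC correction, and 0 to 1 without single libraries. Of 1088 values of 64 named genes under 17 alternatives, 9 reversed, all on leaving out 1 library. Over those settings Cox4i2 ranged from -3.05 to 0.21, Cox6b1 from -0.59 to 0.066, Cox6b2 from -1.51 to 0.15, Cox7a2l from -0.0074 to 0.40, Uqcrh from -0.34 to 0.12 and Ndufab1 from -0.0064 to 0.68. The causes were not tested.

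Same-numbered libraries did not deviate together (correlations -0.03, 0.03 and -0.05), so the replicate numbers do not pair them. With a replicate block the subunit median was 0.34, 0 subunits and 0 pathway genes in either direction were called, and 10 subunits had an unadjusted p under 0.05. The 5 subunits removed by the filter were not tested, and for the low subunits Cox4i2 (-0.49 ± 1.63) and Atp5k (-0.998 ± 1.25) the SE exceeded the difference.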
